A study of Mus musculus with 9 samples.

Results

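The mature arms of the miR-1a and miR-133a hairpins were followed in quadriceps muscle of wild-type mice and of mice lacking Mbnl1 or Mbnl2. They were taken by name from a table of small RNA-seq counts, which holds 5 of them (mmu-miR-1a-3p, mmu-miR-1a-1-5p, mmu-miR-1a-2-5p, mmu-miR-133a-3p and mmu-miR-133a-5p, written below without the species prefix) among 1966 mature miRNAs. Mbnl1 and Mbnl2 encode muscleblind-like RNA-binding proteins, and the comparison asks how the loss of either one bears on the miRNAs of skeletal muscle. Each group holds 3 libraries, 1 from each mouse, all from mice labelled as 90 days old. WT mice (C57BL/6J) were Mbnl1+/+ and Mbnl2+/+. Mbnl1KO mice had the same strain label and were Mbnl1 deltaE3/deltaE3 with Mbnl2+/+. Mbnl2KO mice carried the strain label B6.C-Tg(CMV-cre)1Cgn/J and were Mbnl1+/+, and their Mbnl2 alleles were labelled deltaE2/deltaE2 in replicate 1, deltaE2/deltaE3 in replicate 2 and deltaE2/deltaE4 in replicate 3. The study itself describes 1 Mbnl2 genotype, deltaE2/deltaE2, so it is unsure whether the mice differed in their alleles. The Cre transgene, driven by the broadly active CMV promoter, was thus in the strain name of Mbnl2KO alone, so strain and genotype cannot be told apart there. Mbnl1 and Mbnl2 mRNA were not measured in small RNA libraries, and the labels could not be checked on the deleted genes.

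miR-1 and miR-133 are the classic muscle miRNAs, or myomiRs. Their hairpins are transcribed together from paired loci under the control of myogenic factors such as MyoD, SRF and MEF2, and each hairpin is cut by Drosha and Dicer into a 5p and a 3p arm, of which 1 is usually loaded into Argonaute and kept. miR-1 is known for promoting muscle differentiation, and miR-133 for acting on myoblast proliferation and on SRF itself. miR-206, a relative of miR-1 made mainly in skeletal muscle, and miR-133b come from a further locus that is active in regenerating and immature fibres.

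Among the 5 arms a sequence was read for miR-1a-1-5p, the arm with the clearest difference between groups. It is shown with the miRNAs of the related locus that the results turn on, 5′ to 3′ from RefSeq, with the seed (bases 2 to 8) in capitals. On GRCm38.p6 the miR-1a-1-5p sequence lies at chr2:180389057-180389079 and that of miR-206-5p, its counterpart in the miR-206 hairpin, at chr1:20679017-20679039, both on the plus strand. miR-206-3p lies at chr1:20679055-20679076 and miR-133b-3p at chr1:20682834-20682855, also on the plus strand.
mmu-miR-1a-1-5p: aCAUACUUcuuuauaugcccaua
mmu-miR-206-5p: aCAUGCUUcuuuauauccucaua
mmu-miR-206-3p: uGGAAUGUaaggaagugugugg
mmu-miR-133b-3p: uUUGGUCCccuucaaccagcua
The 5p arms of the miR-1a-1 and miR-206 hairpins differed at 3 of 23 positions, counted from the 5′ end of miR-1a-1-5p (A5G, G17C and C19U), of which A5G falls in the seed.

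The hairpins occupy a pair of loci in the mouse genome, here placed on GRCm39. Mir1a-1 (2:180030841-180030917) and Mir133a-2 (2:180040172-180040275) lie on the plus strand of chromosome 2, 9254 bp apart, both in introns of the long non-coding host gene Mir1a-1hg. Mir1a-2 (18:10785481-10785552) and Mir133a-1 (18:10782909-10782976) lie on the minus strand of chromosome 18, 2504 bp apart. There Mir1a-2 is in an intron and Mir133a-1 in an exon of the host gene Mir133a-1hg, and both are antisense to an intron of Mib1. Mir1a-2 also overlaps Mir1b on the opposite strand and an exon of the long non-coding Gm58661 on its own strand. The count table lists miR-1a-3p, miR-133a-3p and miR-133a-5p once each, so their counts cannot be split by locus. How reads of each locus entered these counts is not stated. miR-1a-1-5p is listed for the chromosome 2 hairpin, and miR-1a-2-5p for the chromosome 18 hairpin.

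The libraries held between 4761271 and 6277018 counts, and 909 of the 1966 mature miRNAs had a count in at least 1 of them. Replicate libraries differed by far more than counting error, with chi-square values of 39.6 to 280.1 for each degree of freedom over pairs of one group. The muscle identity of the tissue was plain from miR-1a-3p and miR-133a-3p, which ranked first and second in all 9 libraries. Heart and slow-fibre miRNAs (miR-208a-3p, miR-208b-3p and miR-499-5p) summed to 18.8 normalized CPM (counts in every 1000000, after the scaling described below) in Mbnl1KO replicate 2 and to between 0.684 and 5.47 CPM in the other libraries, with miR-208a-3p at 0 throughout. Mbnl1KO replicate 2 was also the only library with counts of miR-208b-3p (8).

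More than 6 in every 10 counts were miR-1a-3p in every library, and its mean share of the pool was lowest in Mbnl1KO. In WT it took 71.3%, 70.1% and 69.7% of the counts (70.4% ± 0.842, SD, n = 3). In Mbnl1KO the shares were 61.4%, 68.6% and 65.4% (65.1% ± 3.65, SD, n = 3), and in Mbnl2KO 69.6%, 67.2% and 73.7% (70.2% ± 3.30, SD, n = 3). All 3 Mbnl1KO libraries lay below all 3 WT libraries, while the Mbnl2KO libraries fell on both sides of WT. The mean share was lower by 5.25 percentage points in Mbnl1KO than in WT, and a two-sided exact permutation test gave p = 0.1, the smallest that 3 libraries against 3 allow. The difference was -3.35 points without Mbnl1KO replicate 1 and -6.99 points without Mbnl1KO replicate 2. For Mbnl2KO against WT the difference was -0.211 points (exact permutation p = 0.8), and it ran from -1.99 points without Mbnl2KO replicate 3 to 1.27 points without Mbnl2KO replicate 2. For Mbnl1KO against Mbnl2KO it was -5.04 points (exact permutation p = 0.2), and these groups overlapped. The 95% Clopper-Pearson interval of any single share of miR-1a-3p was at most 0.0825 points wide, and it covers counting error only, since PCR copies were not marked. In whole muscle, fewer cells of a type and less RNA in each cell cannot be told apart.

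miR-133a-3p was the second most abundant miRNA and held its largest shares in 2 of the 3 Mbnl1KO libraries. Its shares were 6.45%, 6.91% and 7.53% in WT, 10.2%, 6.91% and 9.32% in Mbnl1KO, and 6.14%, 7.06% and 5.39% in Mbnl2KO. Mbnl1KO replicates 1 and 3 lay above every other library, and replicate 2 lay among WT. The difference from WT was 1.86 points in Mbnl1KO (exact permutation p = 0.2) and -0.771 points in Mbnl2KO (exact permutation p = 0.3). The first was 1.15 points without Mbnl1KO replicate 1 and 2.81 points without Mbnl1KO replicate 2. The second was -0.369 points without Mbnl2KO replicate 3, -0.487 points without WT replicate 3 and -1.20 points without Mbnl2KO replicate 2. A share of the whole pool is tied to miR-1a-3p, so the share was also taken of all counts other than miR-1a-3p. On that base miR-133a-3p had 22.5%, 23.1% and 24.9% in WT, 26.5%, 22.0% and 27.0% in Mbnl1KO, and 20.2%, 21.5% and 20.5% in Mbnl2KO. Now the Mbnl2KO libraries all lay below WT (difference of -2.76 points, exact permutation p = 0.1), and Mbnl1KO still overlapped WT (1.66 points, exact permutation p = 0.4).

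The 5 arms together made up 77.5% ± 0.390 (SD, n = 3) of the counts in WT, 74.1% ± 2.08 in Mbnl1KO and 76.5% ± 2.48 in Mbnl2KO (both SD, n = 3). The summed share was below WT in all 3 Mbnl1KO libraries (difference of -3.38 points, exact permutation p = 0.1), and the difference was -2.20 points without Mbnl1KO replicate 1. Next in abundance in WT came miR-30a-5p with 3.77%, miR-26a-5p with 2.71% and let-7f-5p with 1.69%, so in the counts as listed no miRNA outside the 2 families reached the level of miR-133a-3p. The muscle miRNAs miR-486a-5p and miR-486b-5p were listed at 0 in every library, so the ranks and shares hold for the listed counts only. The minor arms were far less abundant. miR-133a-5p ranked 27th and miR-1a-1-5p 146th by mean share in WT.

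**Figure D1:**
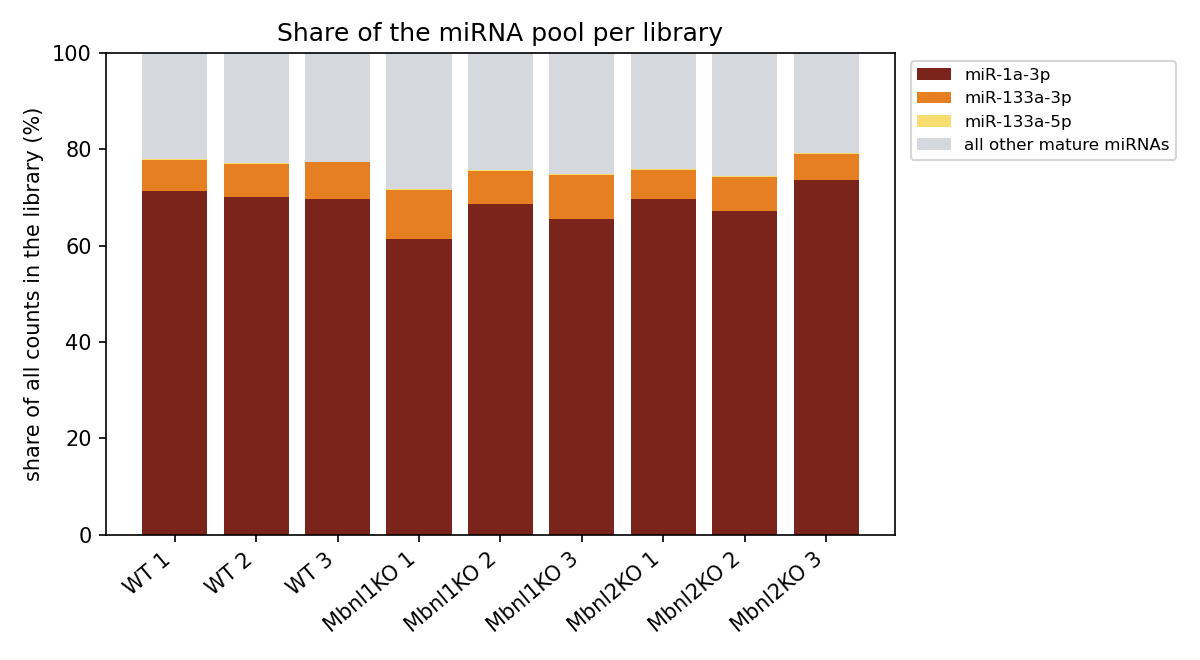
Stacked bars give the share of all counts in each of the 9 libraries (%, linear axis from 0) taken by miR-1a-3p, miR-133a-3p, miR-133a-5p and all other mature miRNAs. The miR-1a-3p segment is shortest in Mbnl1KO replicate 1 (61.4%) and longest in Mbnl2KO replicate 3 (73.7%), and miR-1a-1-5p is too rare to be seen.

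Since 1 miRNA holds most of each library, levels were compared after TMM normalization (trimmed mean of M-values), which scales libraries on the bulk of the tested miRNAs. The resulting normalized CPM of all miRNAs need not add to the same total in each library, and for the 3p arms they are given in units of 1000 CPM (kCPM). miR-1a-3p measured 827, 729.6 and 713 kCPM in WT, 469, 652 and 600.0 kCPM in Mbnl1KO, and 719, 653 and 893 kCPM in Mbnl2KO. Every Mbnl1KO library was below every WT and, by a narrow margin at the nearest pair, every Mbnl2KO library, and WT and Mbnl2KO overlapped. The group means were 756 ± 61.3, 574 ± 94.2 and 755 ± 124 kCPM (SD, n = 3). In edgeR's quasi-likelihood test, the log2 fold change in Mbnl1KO against WT was -0.40 (95% interval -0.73 to -0.07), with an adjusted p of 0.0502 that did not pass 0.05. Against Mbnl2KO it was likewise -0.40 (interval -0.72 to -0.08, adjusted p = 0.0627). Mbnl2KO against WT gave 0.02 (interval -0.27 to 0.31, adjusted p = 0.958).

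The call for miR-1a-3p in Mbnl1KO hung on the treatment of the libraries. It passed with DESeq2 size factors (log2 fold change -0.43, adjusted p = 0.0233) and with DESeq2's own test (adjusted p = 0.0119), which called 24.5% of the miRNAs it tested. Scaling by library totals alone, in which miR-1a-3p itself is most of the total, gave -0.11 (adjusted p = 0.506). Without Mbnl1KO replicate 2 it was -0.48 (adjusted p = 0.00748), without Mbnl1KO replicate 1 it was -0.26 (adjusted p = 0.143), and without WT replicate 1 it was -0.34 (adjusted p = 0.185). The value was negative under all 16 alternatives, and 5 of them passed.

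miR-1a-1-5p, the passenger arm of the chromosome 2 hairpin, was lower in both knockouts than in WT and passed the test in Mbnl1KO. Its counts were 126, 154 and 88 in WT, 114, 42 and 84 in Mbnl1KO, and 84, 92 and 57 in Mbnl2KO. In normalized CPM this was 23.7, 26.1 and 18.9 in WT against 14.8, 7.57 and 12.3 in Mbnl1KO and 14.6, 15.7 and 12.6 in Mbnl2KO. All libraries of both knockouts lay below all WT libraries. It fell in Mbnl1KO against WT by 0.98 on the log2 scale (SE 0.241, interval -1.46 to -0.50, adjusted p = 0.00063). With library totals alone it was -0.65 and missed narrowly (adjusted p = 0.0502), and it passed under the 15 other alternatives. The smallest of its values over the 6 fits that left out a library was -0.74, without Mbnl1KO replicate 2 (adjusted p = 0.0162). In Mbnl2KO against WT the log2 fold change was -0.66 (SE 0.206, interval -1.09 to -0.23) and did not pass (adjusted p = 0.0636), although it did without WT replicate 3 (-0.77, adjusted p = 0.0485). The knockouts differed from each other by -0.30 (interval -0.84 to 0.24, adjusted p = 0.380), and by -0.52 without Mbnl1KO replicate 1 and -0.12 without Mbnl1KO replicate 2.

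miR-133a-3p, the guide arm of both miR-133a hairpins, had normalized levels of 74.8, 71.9 and 77.0 kCPM in WT, 78.2, 65.7 and 85.5 kCPM in Mbnl1KO and 63.4, 68.6 and 65.3 kCPM in Mbnl2KO. Mbnl1KO spread over a wider range than WT on both sides, and Mbnl2KO lay wholly below WT. The log2 fold change was 0.03 in Mbnl1KO (interval -0.27 to 0.34, adjusted p = 0.887) and -0.16 in Mbnl2KO (interval -0.40 to 0.07, adjusted p = 0.498). The sign in Mbnl1KO turned to -0.05 without Mbnl1KO replicate 3. Between Mbnl1KO and Mbnl2KO it was 0.22 (adjusted p = 0.211). Of the 16 alternatives, this passed when libraries were scaled by totals alone (0.51, adjusted p = 0.00261) or by totals without the 5 arms (0.37, adjusted p = 0.0355). It also passed in the edgeR fit scaled by the miR-1a-3p count (0.62, adjusted p = 0.0128).

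miR-133a-5p, the passenger arm, measured 1676, 1831 and 1748 CPM in WT, 1419.9, 1637 and 1455 CPM in Mbnl1KO, and 1549, 1475 and 1652 CPM in Mbnl2KO. In these CPM, scaled over all 9 libraries, both knockout groups lay below WT without overlap. The highest Mbnl2KO library lay just short of the lowest WT library. With the WT and Mbnl2KO libraries scaled alone, as in their fit, these groups overlapped. There Mbnl2KO replicate 3 (8900 normalized counts) lay above WT replicate 1 (8690). Neither difference passed, with log2 fold changes of -0.22 in Mbnl1KO (interval -0.51 to 0.06, adjusted p = 0.230) and -0.15 in Mbnl2KO (interval -0.39 to 0.10, adjusted p = 0.541). The value in Mbnl2KO was -0.06 without Mbnl2KO replicate 2 and -0.21 without WT replicate 1. Mbnl1KO against Mbnl2KO was -0.05 (adjusted p = 0.718), and it ran from -0.16 to -0.01 with a library left out. With library totals alone the value in Mbnl1KO against WT turned to 0.07.

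**Figure D2:**
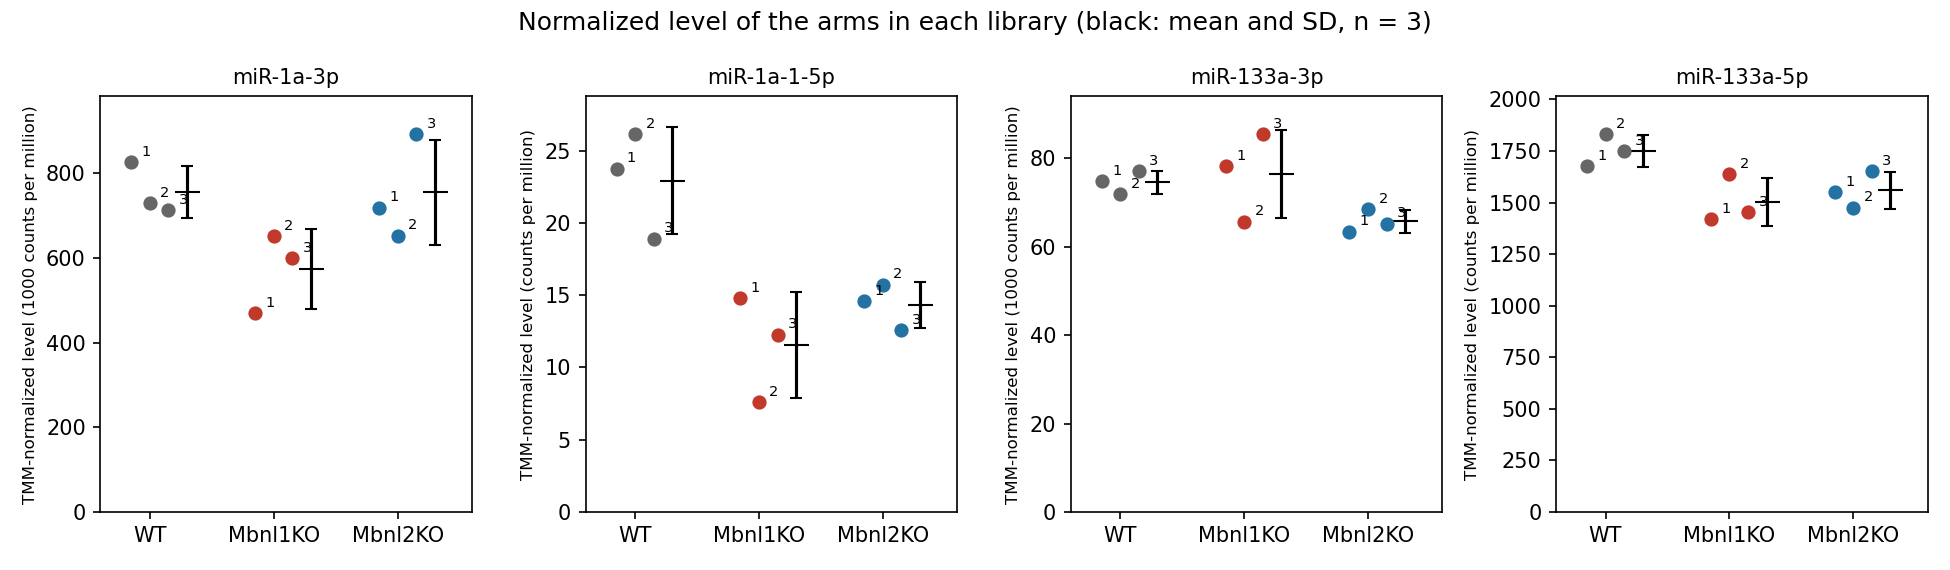
TMM-normalized CPM (linear axes from 0, units of 1000 CPM for the 3p arms) of the 4 arms with counts, by group. Points are single libraries marked with the replicate number, and the black bars are the mean and SD (n = 3). Only miR-1a-1-5p has both knockout groups well below WT, and miR-1a-3p is low in Mbnl1KO alone.

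Set against all miRNAs tested, these counts of arms stand as follows, with overlap judged in the CPM scaled over all 9 libraries. In Mbnl1KO against WT, edgeR passed 1 of the 4 arms where it passed 33.1% of 317 miRNAs (DESeq2 passed miR-1a-3p and miR-1a-1-5p, and 24.5% of 387), and the groups did not overlap for 3 of the 4 where this held for 44.8%. In Mbnl2KO against WT, none of the 4 passed by edgeR or by DESeq2 (1 had an unadjusted p under 0.05) where 5.8% of 293 did by edgeR and 3.95% of 354 by DESeq2, and 3 of the 4 did not overlap where 23.2% did not. Of these 3, miR-133a-5p overlapped when the WT and Mbnl2KO libraries were scaled alone. In Mbnl1KO against Mbnl2KO, edgeR passed none of the 4 (1 had an unadjusted p under 0.05, and DESeq2 passed miR-1a-3p, and 17.8% of 455) where 26.9% of 309 passed, and 1 of the 4 did not overlap where 47.9% did not. The median log2 fold change of the 4 arms in Mbnl1KO against WT was -0.31 beside -0.01 for all tested miRNAs. In Mbnl2KO against WT it was -0.15 beside 0.02.

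**Figure D3:**
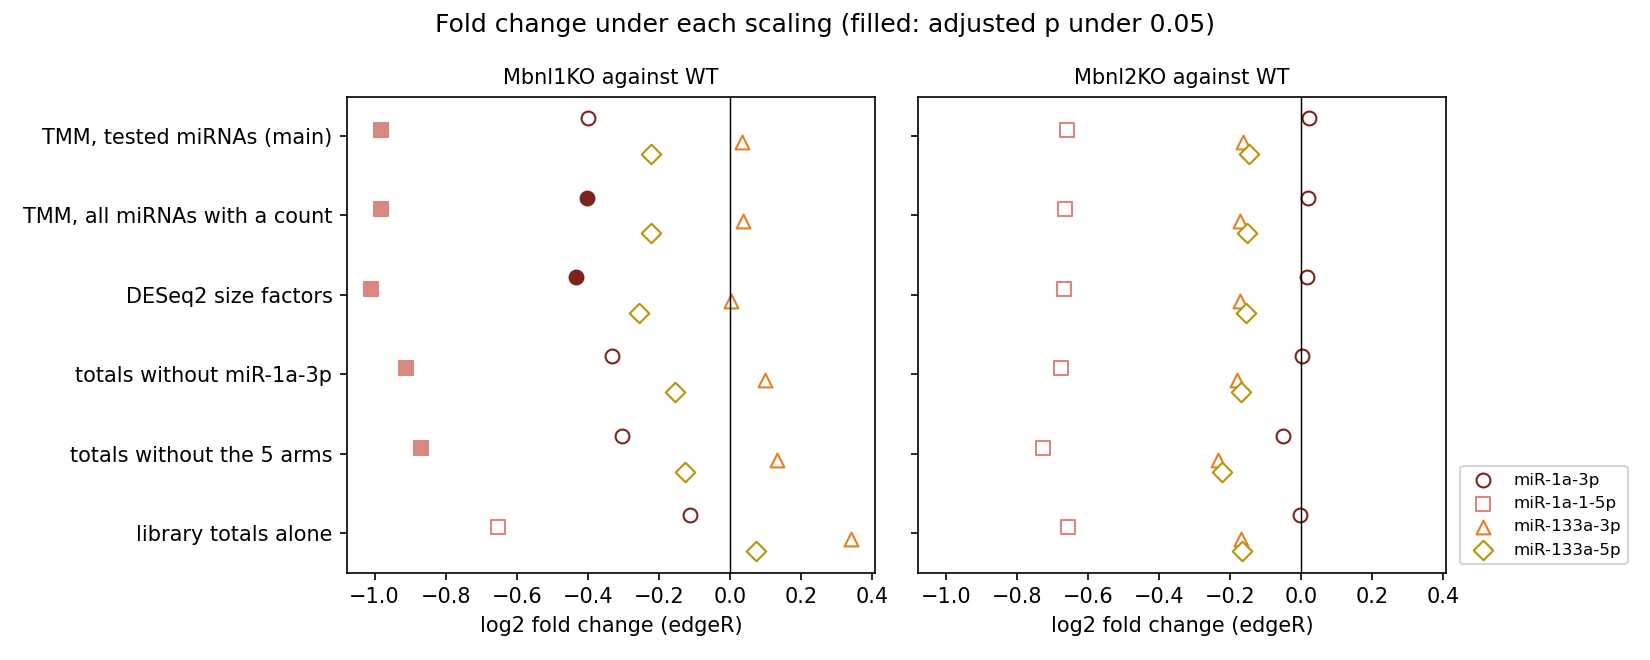
Log2 fold change against WT (linear axis) of the 4 arms under 6 ways of scaling the libraries, for Mbnl1KO (left) and Mbnl2KO (right). Filled symbols have an adjusted p under 0.05 in edgeR. In Mbnl1KO, miR-1a-1-5p is filled in every row but library totals alone, whereas miR-1a-3p is filled only with TMM over all miRNAs with a count (adjusted p = 0.0453) and with DESeq2 size factors (adjusted p = 0.0233).

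The miR-1a-2-5p entry, for the chromosome 18 hairpin, was at 0 in all 9 libraries. A count of 0 allows up to 3 counts, or 0.478 to 0.630 CPM of the library total. Entries for abundant muscle and vessel miRNAs, such as miR-486a-5p and miR-126a-3p, were also listed at 0 throughout, so the table holds zeros where expression is well known. The entry is therefore given only as listed at 0, and the 2 hairpins could not be compared through their 5p arms.

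Ratios of counts within a library need no scaling between libraries, and the ratio of the most abundant arms separated 2 of the Mbnl1KO mice from the rest. The libraries held 11.1, 10.1 and 9.26 counts of miR-1a-3p for each count of miR-133a-3p in WT, 6.00, 9.93 and 7.02 in Mbnl1KO, and 11.3, 9.53 and 13.7 in Mbnl2KO. Mbnl1KO replicates 1 and 3 had the lowest ratios of all, and replicate 2 lay within the range of WT. With each library scaled by its miR-133a-3p count, miR-1a-3p had a log2 fold change of -0.41 in Mbnl1KO against WT (interval -0.89 to 0.07, adjusted p = 0.208), in a fit that called 27.5% of miRNAs. It was 0.18 in Mbnl2KO against WT (adjusted p = 0.464, 8.9% called; 0.039 without Mbnl2KO replicate 3 and 0.30 without Mbnl2KO replicate 2) and -0.59 in Mbnl1KO against Mbnl2KO (interval -1.09 to -0.09, adjusted p = 0.0729, 30.5% called). Exact permutation tests of the log2 ratio gave p = 0.2, 0.4 and 0.2 in that order. Turned round, with the miR-1a-3p count as the library size, miR-133a-3p was 0.46 in Mbnl1KO against WT (adjusted p = 0.0395, 34.2% called), -0.16 in Mbnl2KO against WT (adjusted p = 0.809, 3.08% called) and 0.62 in Mbnl1KO against Mbnl2KO (adjusted p = 0.0128, 21.1% called), so the calls in Mbnl1KO depended on which miRNA served as the scale. Without Mbnl1KO replicate 2 the first ratio was -0.64 against WT (adjusted p = 0.00026) and -0.82 against Mbnl2KO (adjusted p = 0.00137). Without Mbnl1KO replicate 1 that ratio was -0.26 against WT (adjusted p = 0.492).

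Arm usage of miR-133a did not differ detectably between groups. For each 5p count there were 44.6, 39.3 and 44.1 counts of the 3p arm in WT, 55.1, 40.1 and 58.7 in Mbnl1KO, and 40.9, 46.5 and 39.5 in Mbnl2KO. The same pair of Mbnl1KO replicates, 1 and 3, had the highest values of all libraries, and replicate 2 again lay in the range of WT. The log2 ratio of 5p to 3p differed from WT by -0.25 in Mbnl1KO (interval -0.78 to 0.28, adjusted p = 0.623 in limma; -0.42 without Mbnl1KO replicate 2 and -0.14 without Mbnl1KO replicate 3) and by 0.01 in Mbnl2KO (interval -0.46 to 0.49, adjusted p = 0.974). Mbnl1KO against Mbnl2KO was -0.26 (adjusted p = 0.505), and it ran from -0.43 to -0.16 with a library left out.

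For miR-1a the imbalance of arms was extreme. miR-1a-3p outnumbered miR-1a-1-5p by 34808, 27923 and 37734 to 1 in WT, by 31734, 86106 and 48898 to 1 in Mbnl1KO, and by 49334, 41538 and 70876 to 1 in Mbnl2KO. The Mbnl2KO libraries were all above WT, and Mbnl1KO stretched from within WT to the highest value. miR-1a-3p is the product of both miR-1a hairpins, so this ratio overstates the imbalance of the chromosome 2 hairpin by any counts that came from the other hairpin. That part is not known. The log2 ratio of 5p to 3p differed from WT by -0.62 in Mbnl1KO (interval -1.47 to 0.24, adjusted p = 0.415; -0.96 without Mbnl1KO replicate 1 and -0.24 without Mbnl1KO replicate 2) and by -0.66 in Mbnl2KO (interval -1.26 to -0.06, adjusted p = 0.319), and the knockouts differed from each other by 0.04 (adjusted p = 0.977). None of these passed. The limma fit called 5.38% of 93 arm pairs in Mbnl1KO against WT, 0% of 83 in Mbnl2KO against WT (11 had an unadjusted p under 0.05) and 12.1% of 91 between the knockouts.

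**Figure D4:**
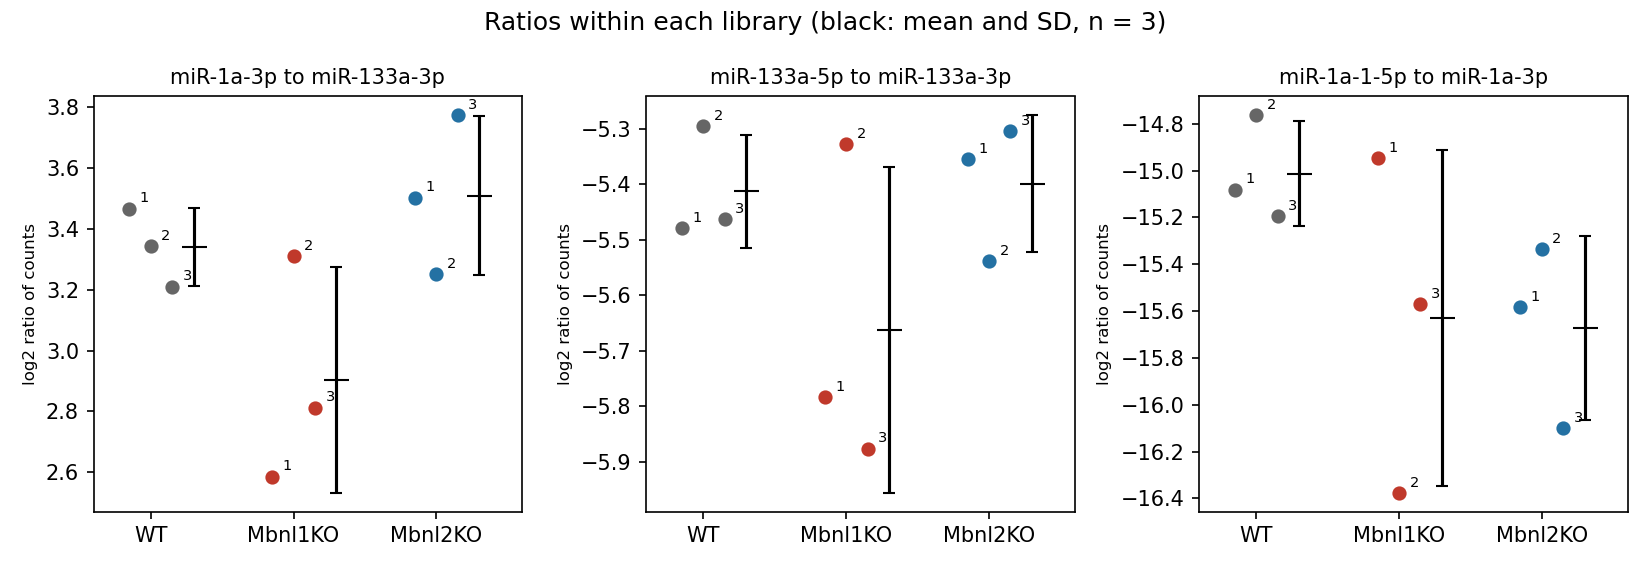
Log2 ratio of counts in each library (the axes do not start at 0 and differ between panels) for miR-1a-3p to miR-133a-3p, miR-133a-5p to miR-133a-3p and miR-1a-1-5p to miR-1a-3p. Points are libraries marked with the replicate number, and the bars are the mean and SD (n = 3). In the left and middle panels Mbnl1KO replicates 1 and 3 lie below all other libraries while replicate 2 sits with WT.

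Of the 93 arm pairs, miR-1a-3p with miR-1a-1-5p was the most unequal in WT, with a mean log2 ratio of 3p to 5p of 15.01. miR-133a ranked 32nd by the size of its log2 ratio, at 5.41. The median size over all pairs was 3.19, and the 3p arm was the more abundant in 38 of the 93.

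**Figure D5:**
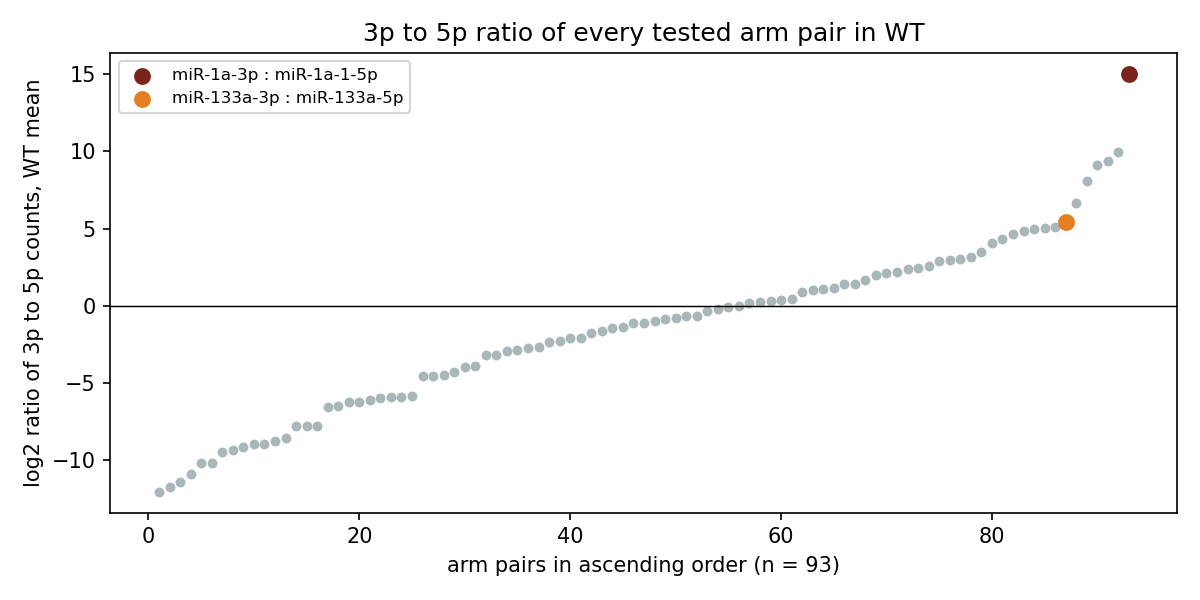
Mean log2 ratio of 3p to 5p counts in WT for each of the 93 arm pairs, in ascending order, with 0 marking equal arms. The miR-1a pair stands at the upper end (15.01), and miR-133a (5.41) also lies on the 3p side.

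The related miRNAs of the chromosome 1 locus were higher in Mbnl1KO, and miR-206-3p also in Mbnl2KO. Mir206 (1:20749234-20749306) and Mir133b (1:20752993-20753111) lie 3686 bp apart in exons of the long non-coding RNA Lincmd1 on chromosome 1 (GRCm39). Of 17 other muscle miRNA entries (the arms of miR-206, miR-133b, miR-133c, miR-1b, miR-208a, miR-208b, miR-499, miR-486a and miR-486b), 10 were at 0 in all libraries and 3 were tested. Of those 3, 2 rose in Mbnl1KO against WT, 1 rose in Mbnl2KO against WT and 2 were higher in Mbnl1KO than in Mbnl2KO, and none fell, where 33.1%, 5.8% and 26.9% of all tested miRNAs passed in either direction.

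miR-206-3p measured 759.8, 639.6 and 627 CPM in WT, 2649, 2827 and 2249 CPM in Mbnl1KO, and 1457, 1038 and 1196 CPM in Mbnl2KO, with no overlap between any of the groups. It rose by 1.93 on the log2 scale in Mbnl1KO (adjusted p = 4.37e-21) and by 0.89 in Mbnl2KO (adjusted p = 0.000757). Even so, miR-206-3p stayed a small part of the pair. There were 1122 ± 29.7 counts of miR-1a-3p for each miR-206-3p count in WT, 225 ± 45.1 in Mbnl1KO and 623 ± 127 in Mbnl2KO (SD, n = 3; exact permutation p = 0.1 for each pair of groups, which did not overlap). As a share of both, miR-206-3p was 0.0891% in WT, 0.455% in Mbnl1KO and 0.165% in Mbnl2KO. Summed, both miRNAs came to 757 ± 61.4, 576 ± 94.2 and 756 ± 124 kCPM, nearly the values of miR-1a-3p alone.

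miR-133b-3p, the relative of miR-133a-3p, rose in Mbnl1KO and did not pass the test in Mbnl2KO. It measured 9.61, 11.9 and 14.6 CPM in WT, 22.2, 20.0 and 16.8 CPM in Mbnl1KO and 10.8, 11.6 and 9.50 CPM in Mbnl2KO. All Mbnl1KO libraries lay above the others. The log2 fold change was 0.71 in Mbnl1KO against WT (interval 0.23 to 1.20, adjusted p = 0.0172), -0.15 in Mbnl2KO against WT (adjusted p = 0.787) and 0.88 between the knockouts (adjusted p = 0.00719). The counts behind it were small, between 43 and 171 in a library. miR-133a-3p and miR-133b-3p are close relatives, and how the counting divided reads between them is not stated, so the level of the rarer one is uncertain. miR-499-5p, which is made from a slow myosin gene, had 29, 22 and 7 counts in WT, 14, 96 and 11 in Mbnl1KO and 25, 4 and 9 in Mbnl2KO, and the 96 of Mbnl1KO replicate 2 stood alone. Its part in the high miR-1a-3p and low miR-133a-3p of that library, relative to its group, was not tested.

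The arms were also compared across the 9 libraries. The Pearson correlation of log2 normalized CPM was -0.47 between miR-1a-3p and miR-133a-3p, 0.68 between miR-1a-3p and miR-133a-5p, and -0.23 between both arms of miR-133a. It was 0.26 between miR-1a-1-5p and each 3p arm, and 0.44 between miR-1a-1-5p and miR-133a-5p. Over the 6 WT and Mbnl2KO libraries the first 3 values were -0.10, 0.32 and 0.59, and those of miR-1a-1-5p were -0.13 with miR-1a-3p, 0.75 with miR-133a-3p and 0.66 with miR-133a-5p. The points share their library and its scaling, and these values are descriptive. Among 163 miRNAs compared, the pattern of miR-1a-3p was most like that of miR-1843a-5p (r = 0.848), miR-361-3p (0.823) and let-7i-5p (0.804). Closest to miR-133a-3p were miR-29c-3p (r = 0.840), miR-1198-5p (0.736) and miR-29c-5p (0.732). Closest to miR-133a-5p were miR-22-5p (r = 0.925), miR-7a-5p (0.881) and miR-194-5p (0.825). Neither arm of miR-133a was among the nearest to the other or to miR-1a-3p.

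Markers of other cell types were also followed. Of 8 immune and blood miRNAs, 7 had counts, and their summed level ran from 502 to 546 CPM in WT, from 469 to 590.2 CPM in Mbnl1KO and from 515 to 542 CPM in Mbnl2KO, with miR-142a-3p listed at 0. Of the 6 that were tested, 1 rose and 3 fell in Mbnl1KO against WT, and none passed in Mbnl2KO against WT, where edgeR called 33.1% and 5.8% of all tested miRNAs. Connective tissue and vessel wall miRNAs (5 of 7 with counts, both miR-126a arms at 0) summed to between 6302 and 7057 CPM in WT, 5745 and 8453 CPM in Mbnl1KO, and 7521 and 8690.3 CPM in Mbnl2KO. Of the 5 tested, 1 fell in Mbnl1KO and 1 rose in Mbnl2KO against WT, beside the same 33.1% and 5.8%. The part of these cells in the levels of the myomiRs was not tested.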

How the data were processed

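The authors deposited 1 table of raw counts for each mature miRNA and library. Per the methods of the study, libraries were made from 200 ng of total RNA with the NEXTflex Small RNA-Seq kit, and clipped, collapsed reads were matched without mismatch to miRBase precursors. Whether this counting made the deposited table, and its genome build, are not given in the sources used here. Per the labels, DESeq2 was used.

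Libraries were grouped by their labels. The miRNAs and lists were chosen with earlier results of these data known: the 5 arms, 17 other muscle miRNAs, the 5 most abundant in WT, the 3 most correlated with each of miR-1a-3p, miR-133a-3p and miR-133a-5p, and cell type markers. For every comparison, the 6 libraries involved entered edgeR's robust quasi-likelihood test with TMM over miRNAs with a mean normalized count above 10, with Benjamini-Hochberg adjustment over all tested and a threshold of 0.05. Displayed CPM used TMM over all 9 libraries. Arm ratios (pseudocount 0.5) were tested with limma over all pairs, with adjustment over the pairs, and shares and single ratios with two-sided exact permutation tests, unadjusted. The p-values measure the spread between these libraries, 1 from each mouse. The fits were tested on simulated data in which miR-1a-3p never changed, so a shift of the most abundant miRNA was not simulated. Alternatives were other scalings, filters and pseudocounts, DESeq2, a joint fit of the 9 libraries, a block for the replicate number, and each library left out. Versions were edgeR 4.0.16 and limma 3.58.1 under R 4.3.3, with DESeq2 1.42.0 as the alternative. Hairpins were placed with the GENCODE mouse annotation on GRCm39. Sequences were taken from RefSeq for the miRNAs printed above, and the other miRNAs are named only.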

Additional observations from a re-analysis of the deposited data

How the results depend on the processing

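No arm moved to the other side of 0 while passing the threshold. miR-1a-3p, by its log2 fold change in Mbnl1KO against WT passed with TMM over all miRNAs with a count (-0.40, adjusted p = 0.0453, chosen after seeing the data), DESeq2 size factors (-0.43), the DESeq2 test (-0.43) and all 9 libraries in 1 fit (-0.40, adjusted p = 0.0460), and ran from -0.48 to -0.26 with a library left out. Against Mbnl2KO it passed with DESeq2 size factors (-0.45, adjusted p = 0.0498) and the DESeq2 test (-0.45), and ran from -0.54 to -0.27, passing without Mbnl1KO replicate 2 and without Mbnl2KO replicate 2. In Mbnl2KO against WT it turned from 0.02 to -0.0043 with library totals alone, -0.051 with totals without the 5 arms and -0.0027 with all 9 libraries, and ran from -0.13 to 0.16. With library totals alone, miR-1a-1-5p was -0.65 in Mbnl1KO against WT and 0.0031 between the knockouts, and miR-133a-5p was 0.072 and 0.24. Between the knockouts miR-133a-5p was 0.013 with totals without miR-1a-3p and 0.094 with totals without the 5 arms, and miR-133a-3p was 0.51 with library totals alone and 0.37 with totals without the 5 arms. Scaling by library totals alone moved the median of all miRNAs to 0.28 in Mbnl1KO against WT and to 0.35 between the knockouts, and the share of calls that were higher in Mbnl1KO to 89.2% and 94.6%. The cause of these shifts was not tested.

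With each library left out in turn, miR-1a-1-5p ran from -1.18 to -0.74 in Mbnl1KO and from -0.77 to -0.55 in Mbnl2KO, and miR-133a-3p from -0.055 to 0.15 in Mbnl1KO. The ratio of miR-1a-3p to miR-133a-3p ran from -0.64 to -0.26 in Mbnl1KO against WT and from -0.82 to -0.44 between the knockouts. The 5p to 3p ratio of miR-133a in Mbnl2KO ran from -0.034 to 0.083, and that of miR-1a between the knockouts from -0.30 to 0.41. Without miR-1a-3p in the denominator, the difference in the share of miR-133a-5p was -0.0563 points in Mbnl1KO against WT (0.00837 points of the whole pool), -0.0606 points in Mbnl2KO against WT (-0.0177) and 0.00435 points between the knockouts (0.0261, where the groups did not overlap), and that of miR-133a-3p was -2.76 points in Mbnl2KO against WT and 4.42 points between the knockouts. The number of miRNAs called in Mbnl1KO against WT was 105, and 68 with a mean count above 100. In Mbnl2KO against WT it was 17, with 7 for library totals alone, 10 for totals without the 5 arms, 9 with a mean count above 100, 11 with all 9 libraries, and 6 to 25 with a library left out. Above a mean count of 100, miR-1a-1-5p was not tested in Mbnl2KO.

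Samples with the same replicate number did not deviate together (r from -0.155 to 0.103). With the replicate block, 92 miRNAs were called in Mbnl1KO against WT and 21 in Mbnl2KO against WT, miR-1a-1-5p was -1.01 (adjusted p = 0.00191) and miR-1a-3p -0.41 (adjusted p = 0.116) in Mbnl1KO, and the block changed no call of an arm. Depth limits miR-1a-1-5p, with at most 154 counts in a library, and 3 libraries a group cannot give an exact p under 0.1.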
